A study of Mus musculus with 4 samples.

Results

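The aldo-keto reductases described here are 10 mouse genes (Akr1a1, Akr1b3, Akr1b7, Akr1b8, Akr1b10, Akr1c6, Akr1c13, Akr1c14, Akr1d1 and Akr7a5), chosen by gene name as rows of a deposited liver RNA table. They are 10 of the 13903 genes the table lists. RNA was sequenced from livers of OGT-Floxed mice (background C57BL/6J), all fed the CDE (choline-deficient, ethionine-supplemented) diet, which injures hepatocytes. The virus was AAV8-TBG-CRE in mice labelled OGT-KO and AAV8-TBG-eGFP in those labelled Control, and livers were taken either with no recovery from the diet or 7 days into recovery. OGT is the O-GlcNAc transferase, Cre recombinase deletes the floxed Ogt gene, and the TBG promoter is active in hepatocytes, so the other liver cells are not its target. There were 4 conditions with 1 library each, made from RNA of 3 mice pooled in equal parts, and the sex and age of the mice are not given in the sources used here. No value below therefore has a replicate error, and no p-value for a difference between conditions is given: bracketed intervals are exact 95% counting intervals, which cover counting error only and say nothing of how mice vary.

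Values are CPM, the reads of a gene per 1000000 reads of the library. The libraries held 19972699 to 22866431 reads, and the floor of 3 reads lay at 0.131 to 0.150 CPM. Ogt itself had 55.3 CPM in the OGT-KO-labelled library and 64.7 in the control-labelled library with no recovery, but 77.7 and 55.7 after 7 days. As deposited the order at 7 days thus went against the label, with a log2 difference of 0.47, which became -0.20 under median-ratio and -0.01 under upper-quartile scaling of the libraries. The libraries are called by their labels throughout. Of the 6 hepatocyte markers read, Alb stood at 41362 to 54435 CPM in the 4 libraries, and the lowest of the 6, Serpina1a, at 532 to 2498.

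Aldo-keto reductases are enzymes that use NADPH or NADH to turn aldehydes and ketones into alcohols. In liver they act on sugars, on steroids and bile acid intermediates, and on reactive aldehydes that arise from lipid peroxidation, xenobiotics and food. The AKR1B genes encode aldose reductase and its relatives, the AKR1C genes encode hydroxysteroid dehydrogenases, Akr1d1 encodes the steroid 5β-reductase of bile acid synthesis, and Akr1a1 and Akr7a5 encode broad aldehyde reductases.

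The members fell into groups of neighbours in the genome. Akr1b3, Akr1b8, Akr1b10 and Akr1b7 followed each other in that order on mouse chromosome 6, with no other protein-coding gene among them. On chromosome 13, Akr1c14, Akr1c13 and Akr1c6 lay within an unbroken run of 9 aldo-keto reductase genes, in the order Akr1c14, Akr1c18, Akr1c13, Akr1c19, Akr1c12, Akr1c6, Akr1c20, Akr1c21 and Akr1e1. Akr1d1 was also on chromosome 6, outside the AKR1B run, and Akr1a1 and Akr7a5 were on chromosome 4.

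Likeness of sequence bears on how far the members can be counted apart. The coding sequences of Akr1b7 and Akr1b10 were 89.2% identical, those of Akr1b8 and Akr1b10 85.4% and those of Akr1b7 and Akr1b8 84.8%, whereas Akr1b3 reached at most 73.9% with any of them. Akr1c13 was 96.2% identical to Akr1c12, and Akr1c6 92.3% to Akr1c20. Of the 50-base stretches in the Akr1c13 transcript, 28.6% also occurred in another gene's transcript, with Akr1c12 as the partner. For Akr1b3 that share was 59.9%, through pseudogenes that include Gm6644, Gm6736 and Gm12138, none of which the table lists. It was at most 3.21% for each of the other 8 members and 0 for Akr1a1, Akr1c14, Akr1d1 and Akr7a5. How reads that match several copies were counted is not given in the sources used here, so the single values of Akr1b3 and Akr1c13 are uncertain.

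The stretches upstream of the genes were compared because the AKR1B members differed between the labels in a shared direction, as did the AKR1C members. Other genes of the AKR1C run did not all follow, as given below. RefSeq windows of the 250 bases before the gene start (GRCm38.p6) were found for 9 of the 10 members, all but Akr1b3. The first pair below is shown because Akr1c13 is nearly the same as its neighbour Akr1c12 there too, with 95.5% identity over 246 aligned bases. The second pair is shown because the coding sequences of Akr1b7 and Akr1b10 are the most alike among the AKR1B genes. Aligned end to end, their windows had 54.5% identity over 231 aligned bases. Their longest shared run began 79 bases before the start in Akr1b7 and 28 in Akr1b10. The 2 windows are thus out of register along that run, and the identity may understate how alike the upstream stretches are. Capitals mark the longest run that both windows of a pair share, 75 bases in the first and 13 in the second, and each sequence is read 5′ to 3′ on the strand of its gene.
Akr1c13 (chr13:4190937-4191186, plus strand): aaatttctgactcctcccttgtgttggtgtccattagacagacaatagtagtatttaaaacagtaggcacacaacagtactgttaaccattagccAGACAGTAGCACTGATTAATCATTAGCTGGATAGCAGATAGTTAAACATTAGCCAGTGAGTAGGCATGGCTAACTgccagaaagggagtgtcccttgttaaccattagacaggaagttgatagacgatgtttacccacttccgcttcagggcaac
Akr1c12 (chr13:4279400-4279649, minus strand): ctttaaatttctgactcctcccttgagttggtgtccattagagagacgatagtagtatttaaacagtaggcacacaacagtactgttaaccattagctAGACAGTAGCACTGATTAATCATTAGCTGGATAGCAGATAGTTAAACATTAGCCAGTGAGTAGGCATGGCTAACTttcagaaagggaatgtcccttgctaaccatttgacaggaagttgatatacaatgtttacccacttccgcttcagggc
Akr1b7 (chr6:34412112-34412361, plus strand): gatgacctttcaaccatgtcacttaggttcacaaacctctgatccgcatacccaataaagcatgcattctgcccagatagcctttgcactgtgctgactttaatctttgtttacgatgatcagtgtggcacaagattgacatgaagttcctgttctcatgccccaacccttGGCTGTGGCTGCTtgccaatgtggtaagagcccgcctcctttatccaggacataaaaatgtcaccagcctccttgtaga
Akr1b10 (chr6:34383997-34384246, plus strand): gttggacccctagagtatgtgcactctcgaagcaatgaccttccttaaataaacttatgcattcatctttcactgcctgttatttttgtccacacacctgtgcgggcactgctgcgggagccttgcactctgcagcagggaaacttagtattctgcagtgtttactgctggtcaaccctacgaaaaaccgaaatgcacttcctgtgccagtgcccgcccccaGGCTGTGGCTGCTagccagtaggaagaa
Both strands of the windows were searched for the core of the antioxidant response element (TGACNNNGC), for the AP-1 site (TGANTCA), for an HNF4 site (CAAAGTCCA) and for a TATA box (TATAAA). The first 3 motifs occurred in 0 of 9 members, against 10.2%, 6.75% and 0.384% of all 32851 windows of this length. Akr1b3 had no window, so the search does not cover it. The HNF4 letters were so rare over all windows that 0 of 9 says little of the members. The TATA box letters occurred in 2 of 9 members, Akr1b8 and Akr1c6, against 12.4% of all windows. These are matches of letters within a window and not sites.

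Levels of different genes were compared per kilobase of transcript. In the control-labelled library with no recovery, Akr1c6 stood highest at 575 CPM per kb, followed by Akr1a1 at 288, Akr7a5 at 152, Akr1c14 at 133, Akr1c13 at 62.0 and Akr1d1 at 33.2. The AKR1B genes followed with Akr1b3 at 2.75 CPM per kb, Akr1b8 at 2.04, Akr1b10 at 0.755 and Akr1b7 at 0.0734, and only the first of these neighbouring pairs, Akr1b3 and Akr1b8, had overlapping counting intervals. The order was the same in the control-labelled library after 7 days, where Akr1b8 and Akr1b10, at 1.07 and 0.657, were the pair with overlapping intervals.

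The order differed in the OGT-KO-labelled libraries. With no recovery, Akr1a1 led at 359 CPM per kb, Akr7a5 was next at 134 and Akr1c6 followed at 118, while Akr1b3 had 15.5. After 7 days Akr1a1 led at 356, Akr1c6 had 204, and Akr1b3, at 39.0 CPM per kb, stood beside Akr1d1 at 37.2 with overlapping intervals and above Akr1c13 at 24.0. Akr1b7 at 18.3 then stood above Akr1b10 at 8.60 and Akr1b8 at 8.32, which overlapped.

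**Figure D1:**
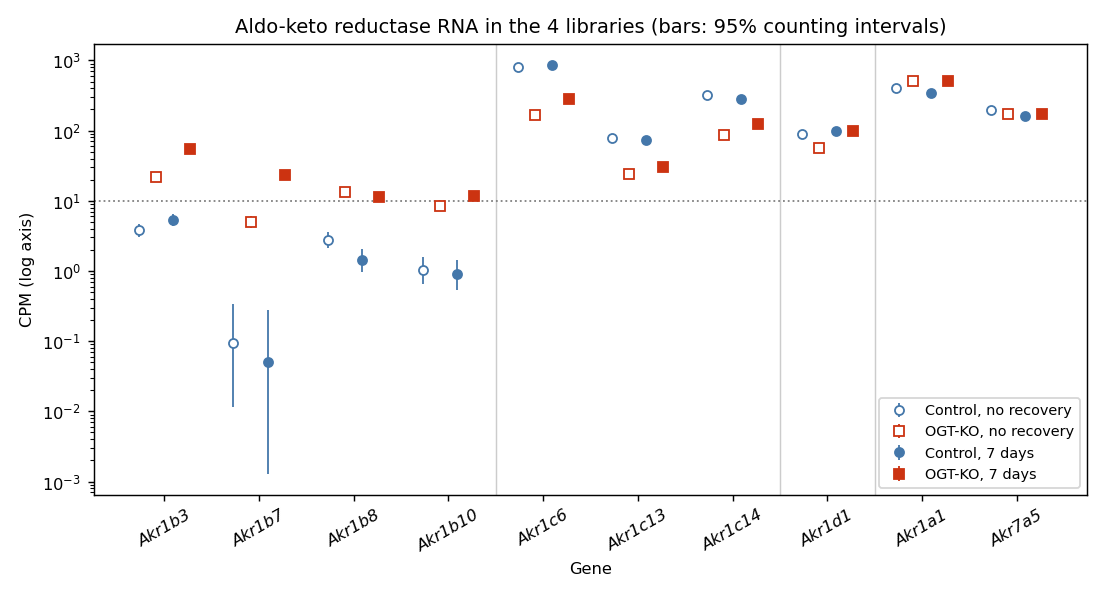
CPM of the 10 members on a log axis, with circles for the control-labelled libraries, squares for those labelled OGT-KO, open symbols for no recovery, filled symbols for 7 days and bars for exact 95% counting intervals (1 library each); the dotted line is the mean of 10 CPM asked of a tested gene. The squares stand above the circles for the 4 AKR1B genes and below them for the 3 AKR1C genes, and the gap is widest for Akr1b7, at 23.4 against 0.0501 CPM after 7 days.

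To ask what the OGT-KO label goes with at each time, differences of log2(CPM + 1) were taken, which shrinks the change of genes near 0. A gene was tested if its mean over the 4 libraries was at least 10 CPM and was called at a 2-fold difference, and 8963 genes were tested. Of the 10 members 7 were tested. Akr1b7, Akr1b8 and Akr1b10 were not, with means of 7.13, 7.18 and 5.53 CPM. With no recovery 1 member was called higher in the OGT-KO-labelled library (Akr1b3), where 24.4% of all tested genes were, and 3 were called lower (Akr1c6, Akr1c13 and Akr1c14), where 5.69% were. The remaining 3, Akr1a1, Akr1d1 and Akr7a5, were within 2-fold. Akr1b3 was under 10 CPM in both control-labelled libraries and was tested only through its higher level in the others, so the filter favoured its call. After 7 days the same members were called in the same directions, against 22.9% of tested genes higher and 4.27% lower.

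Without the filter, 4 of the 10 members were 2-fold higher at each time, namely the 4 AKR1B genes, and 3 were lower. The share of all 13903 listed genes was 33.1% higher and 4.35% lower with no recovery, and 32.3% and 3.32% after 7 days. The median log2 difference of the 10 members was 0.07 with no recovery and 0.31 after 7 days, against 0.65 and 0.61 over all listed genes. Both OGT-KO-labelled libraries lay at least 2-fold above both labelled control for 4 members and at least 2-fold below for 3, against 24.3% and 2.5% of all listed genes.

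The calls over all genes depended on the scaling. The median tested gene was 0.51 higher on the log2 scale in the OGT-KO-labelled library with no recovery and 0.48 higher after 7 days. When the libraries were rescaled by median ratios (each library against the geometric mean of all 4), 10.4% of tested genes were higher and 15.4% lower with no recovery, and 11.6% and 11.8% after 7 days. With upper-quartile scaling 1208 genes were higher and 981 lower with no recovery, and 1215 and 740 after 7 days, against 2185 and 510, and 2050 and 383, as deposited. The AKR1B and AKR1C genes kept their directions under both scalings, while Akr1a1, Akr1d1 and Akr7a5 did not keep them at every time, as given below.

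**Figure D2:**
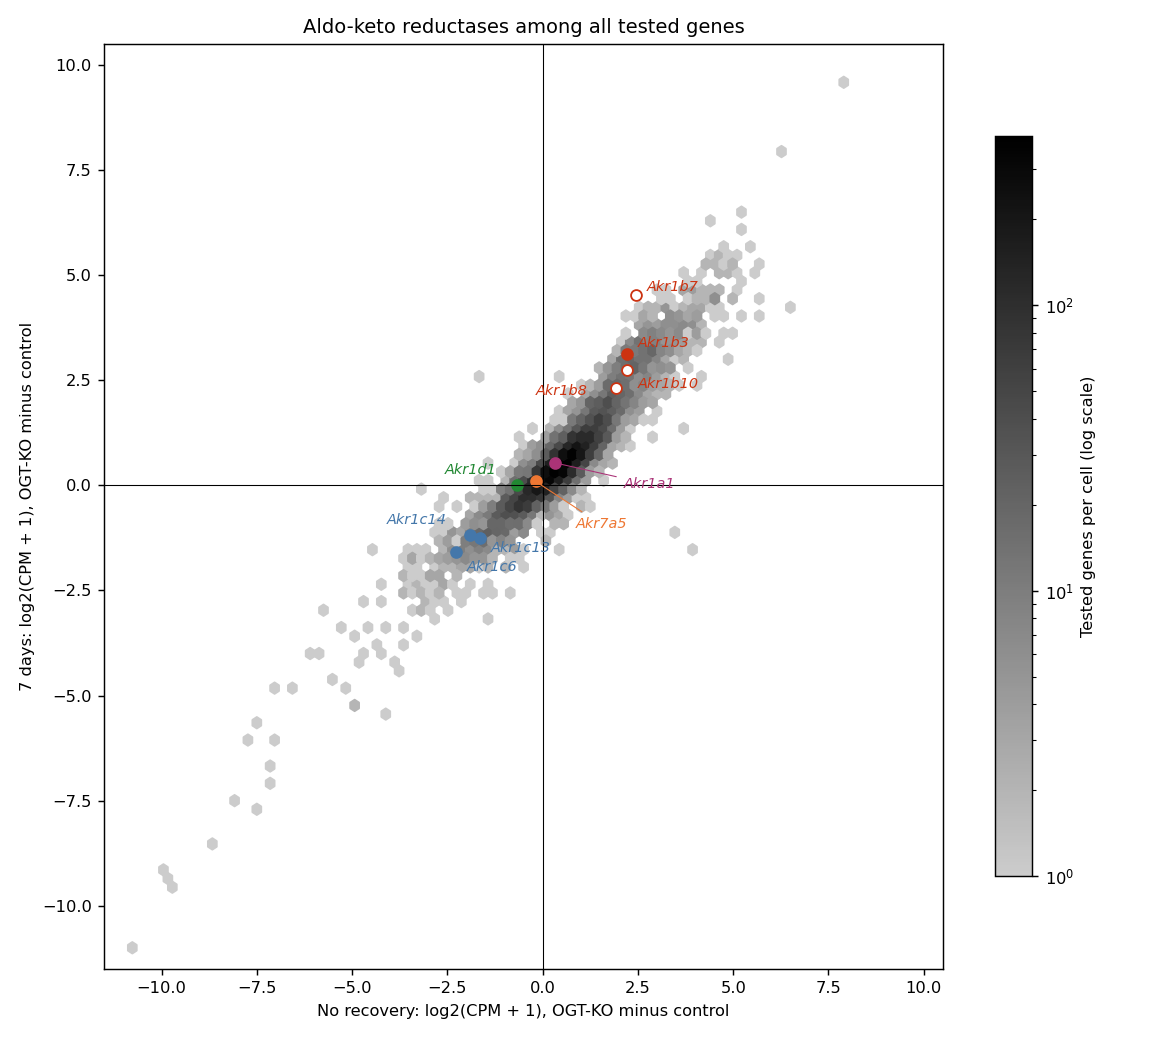
Difference between the OGT-KO- and control-labelled livers on the log2(CPM + 1) scale, with no recovery on the horizontal and after 7 days on the vertical axis, for the 8963 tested genes as grey cells (darker for more genes) and the 10 members as named points, open for the 3 that were not tested. Akr1b3 lies at 2.22 and 3.13 and Akr1c6 at -2.28 and -1.60, on opposite sides of 0 on both axes, and Akr1b7 lies at 2.45 and 4.54.

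Akr1b3 encodes aldose reductase, which turns glucose into sorbitol as the first step of the polyol pathway. It had 21.5 CPM in the OGT-KO-labelled library and 3.81 in the control-labelled library with no recovery, and 54.1 and 5.31 after 7 days. Both OGT-KO-labelled libraries were above both labelled control. Akr1b3 was 5.64-fold higher with no recovery (4.45 to 7.22) and 10.2-fold higher after 7 days (8.35 to 12.5), or 1.72 and 2.65 above the median tested gene on the log2 scale.

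Akr1b7 is best known from the vas deferens and the adrenal cortex, where it reduces an aldehyde by-product of steroid synthesis. It had 114 reads (4.99 CPM) in the OGT-KO-labelled library and 2 reads (0.0941 CPM) in the control-labelled library with no recovery, and 528 reads (23.4 CPM) and 1 read (0.0501 CPM) after 7 days. The control-labelled libraries were both under the floor of 3 reads. The ratio of CPM was 53.0 with no recovery (14.3 to 443) and 467 after 7 days (83.5 to 18492), so counting error leaves the size of the second open above its lower bound. On the log2(CPM + 1) scale the differences were 2.45 and 4.54.

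Akr1b8, also called fibroblast growth factor-regulated protein, and Akr1b10 are aldehyde reductases of the same cluster. Akr1b8 had 13.2 CPM in the OGT-KO-labelled library and 2.78 in the control-labelled library with no recovery, and 11.3 and 1.45 after 7 days. Akr1b10 had 8.40 and 1.03 CPM with no recovery, and 11.8 and 0.901 after 7 days. Neither overlapped between the labels. The ratio for Akr1b8 was 4.76 with no recovery (3.59 to 6.40) and 7.78 after 7 days (5.29 to 11.9), and for Akr1b10 it was 8.11 (5.21 to 13.3) and 13.1 (8.12 to 22.4).

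Summed, the 4 AKR1B genes had 48.1 and 7.71 CPM in the OGT-KO- and control-labelled livers with no recovery, and 100.5 and 7.71 after 7 days. The ratio was 6.23 with no recovery (5.28 to 7.39) and 13.0 after 7 days (11.1 to 15.5). Akr1b3 made up 44.7% of the sum in the OGT-KO-labelled library with no recovery and 53.8% after 7 days. Of the 3 that were not tested, the pseudocount sets the log2 difference in part: with 10 in place of 1, Akr1b7 differed by 0.57 and 1.73, Akr1b8 by 0.86 and 0.90, and Akr1b10 by 0.74 and 1.0.

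**Figure D3:**
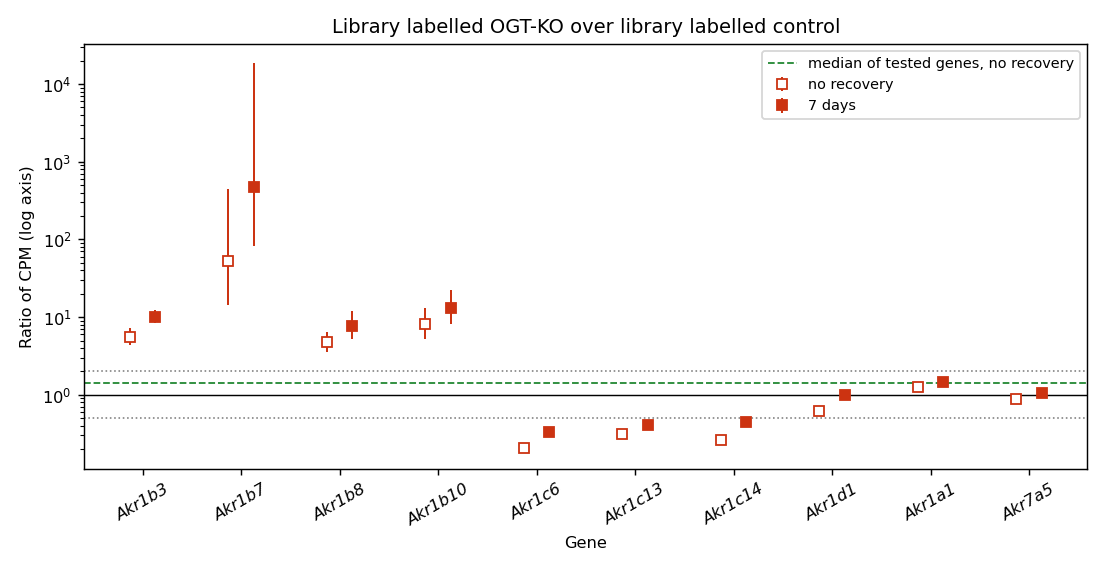
Ratio of CPM in the OGT-KO-labelled library to that in the control-labelled library for each member on a log axis, with open squares for no recovery, filled squares for 7 days, bars for exact 95% counting intervals, dotted lines at 2-fold and a dashed line at the median tested gene with no recovery. The AKR1B genes lie above the upper dotted line, from 4.76 (Akr1b8, no recovery) to 467 (Akr1b7, 7 days), and the AKR1C genes below the lower one.

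The AKR1C members encode hydroxysteroid dehydrogenases. Akr1c6 encodes the mouse type 5 17β-hydroxysteroid dehydrogenase, an abundant liver enzyme that interconverts active and less active sex steroids. It had 165 CPM in the OGT-KO-labelled library and 803 in the control-labelled library with no recovery, and 285 and 863 after 7 days. Both OGT-KO-labelled libraries were below both labelled control. Akr1c6 was 4.87-fold lower with no recovery (4.70 to 5.04) and 3.03-fold lower after 7 days (2.94 to 3.12).

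Akr1c14 encodes a 3α-hydroxysteroid dehydrogenase, which acts on steroids that a 5α- or 5β-reductase has reduced. It had 85.6 and 325 CPM in the OGT-KO- and control-labelled livers with no recovery, and 125 and 282 after 7 days. Akr1c14 was 3.80-fold lower with no recovery (3.61 to 4.0) and 2.26-fold lower after 7 days (2.16 to 2.37). Akr1c13, which shares reads with Akr1c12, had 24.2 and 78.2 CPM with no recovery, then 30.3 and 73.4. It was 3.23-fold lower (2.93 to 3.56) and 2.42-fold lower (2.21 to 2.65). The sum of Akr1c12 and Akr1c13, which does not depend on how their reads were split between them, was 3.76-fold lower with no recovery (3.48 to 4.06) and 2.68-fold lower after 7 days (2.50 to 2.87).

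The 3 AKR1C members together had 274.9 CPM in the OGT-KO-labelled library and 1207 in the control-labelled library with no recovery, and 439.8 and 1218 after 7 days. The sum was 4.39-fold lower (4.27 to 4.51) and 2.77-fold lower (2.71 to 2.84). Set against the median tested gene, the differences on the log2 scale were -2.78 and -2.07 for Akr1c6, -2.42 and -1.65 for Akr1c14, and -2.16 and -1.73 for Akr1c13.

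Akr1d1, the steroid 5β-reductase that acts upstream of 3α-hydroxysteroid dehydrogenases in bile acid synthesis, stood apart from the AKR1C genes. It had 55.8 CPM in the OGT-KO-labelled library and 89.6 in the control-labelled library with no recovery, and 100.3 and 99.3 after 7 days. The OGT-KO-labelled library with no recovery was the low one of the 4. The ratio was 0.623 with no recovery (0.580 to 0.669) and 1.01 after 7 days (0.950 to 1.07), neither past 2-fold as deposited. With no recovery the log2 difference of -0.67 became -1.38 under median-ratio and -1.15 under upper-quartile scaling, both past 2-fold, and at 7 days 0.01 became -0.66 and -0.47.

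Akr1a1 encodes the aldehyde reductase that turns glucuronate into gulonate, a step of ascorbate synthesis in the mouse. It had 509.7 and 408.5 CPM in the OGT-KO- and control-labelled livers with no recovery, and 506.0 and 348.7 after 7 days. The ratio was 1.25 (1.21 to 1.28) and 1.45 (1.41 to 1.49), and the log2 differences of 0.32 and 0.54 became -0.40 and -0.15 under median-ratio and -0.16 and 0.05 under upper-quartile scaling. Akr7a5, an aldehyde reductase that acts on the dialdehyde form of aflatoxin and on succinic semialdehyde, had 172 and 196 CPM with no recovery, then 175 and 164. Its ratio was 0.880 (0.842 to 0.919) and 1.07 (1.02 to 1.12), and the log2 difference of 0.09 at 7 days became -0.59 and -0.39 under these scalings. For these 3 genes the direction at 7 days thus turns on the scaling, except that Akr1a1 stayed at or above 0 under upper-quartile scaling.

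The makeup of the aldo-keto reductase RNA differed with the label. The 10 members summed to 1060.5 and 1908 CPM in the OGT-KO- and control-labelled livers with no recovery, and to 1321 and 1838 after 7 days. The 3 AKR1C members made up 63.2% and 66.3% of the sum in the control-labelled libraries, and 25.9% and 33.3% in those labelled OGT-KO. Akr1a1 made up 21.4% and 19.0% against 48.1% and 38.3%, and the 4 AKR1B genes 0.404% and 0.420% against 4.53% and 7.61%, each pair given in the order no recovery, 7 days. These shares are within a library and do not depend on its scaling, and they are of reads, so long transcripts count for more.

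**Figure D4:**
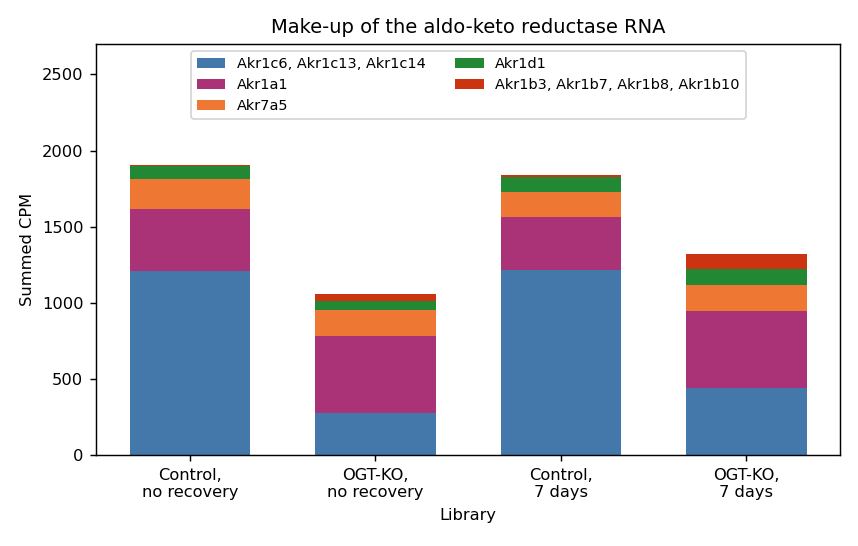
Summed CPM of the members in each of the 4 libraries as stacked bars, with 1 colour for the 3 AKR1C members, for Akr1a1, for Akr7a5, for Akr1d1 and for the 4 AKR1B genes. The sum is 1908 and 1838 CPM in the control-labelled libraries and 1060.5 and 1321 in those labelled OGT-KO, and the AKR1C part takes 1207, 1218, 274.9 and 439.8 of it.

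To ask what recovery goes with, 7 days was compared with no recovery within each label. These comparisons share libraries with those between the labels. In the control-labelled libraries 0 of 7 tested members were called, against 0.245% of tested genes higher and 0.96% lower after 7 days. In the OGT-KO-labelled libraries 1 of 7 was called higher (Akr1b3) and 0 lower, against 1.04% and 0.435%. The median log2 difference of the 10 members was -0.09 in the control-labelled libraries and 0.49 in those labelled OGT-KO, against -0.05 and -0.02 over all listed genes.

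In the OGT-KO-labelled libraries, Akr1b3 was 2.52-fold higher after 7 days (2.27 to 2.80). Akr1b7, which was not tested, was 4.69-fold higher (3.83 to 5.80), where 1.28% of all listed genes were 2-fold higher, while Akr1b8 had a ratio of 0.856 (0.721 to 1.01) and Akr1b10 one of 1.40 (1.16 to 1.70). The AKR1B genes thus differed among themselves: the 4 together were 2.09-fold higher after 7 days (1.95 to 2.25), through Akr1b3 and Akr1b7. In the control-labelled libraries their sum had a ratio of 0.999 (0.797 to 1.25).

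The steroid enzymes had ratios between 1 and 2 in the OGT-KO-labelled libraries. They were 1.80 for Akr1d1 (1.68 to 1.93), 1.72 for Akr1c6 (1.66 to 1.80), 1.46 for Akr1c14 (1.38 to 1.54) and 1.25 for Akr1c13 (1.12 to 1.40). In the control-labelled libraries the same ratios were 1.11, 1.07, 0.867 and 0.938. Akr1a1 and Akr7a5 had ratios of 0.993 and 1.02 in the OGT-KO-labelled libraries, and 0.854 and 0.838 in those labelled control.

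**Figure D5:**
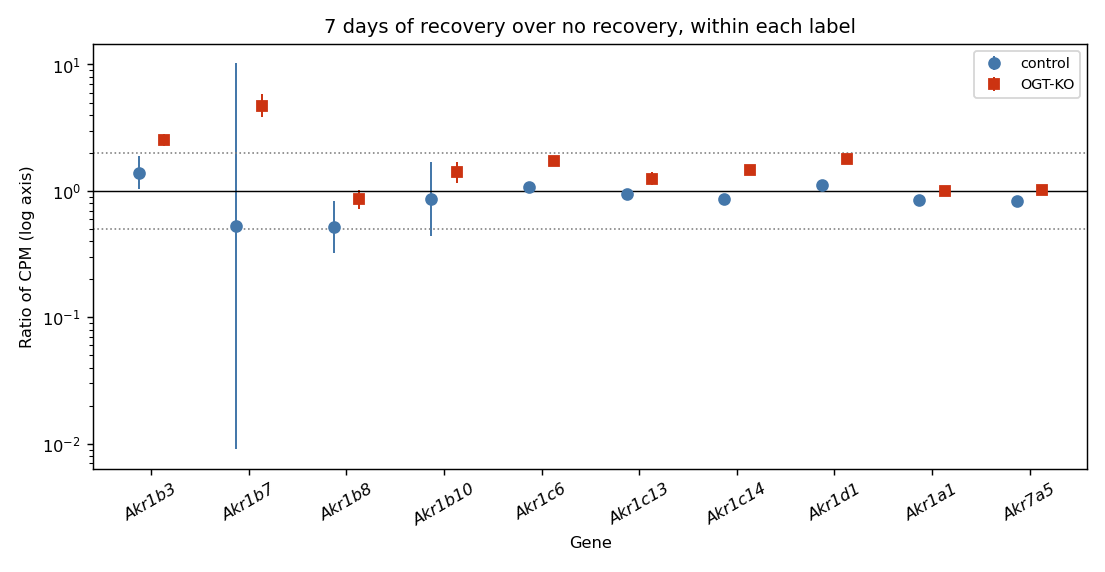
Ratio of CPM after 7 days to CPM with no recovery for each member on a log axis, with circles for the control-labelled libraries, squares for those labelled OGT-KO, bars for exact 95% counting intervals and dotted lines at 2-fold. Akr1b3 and Akr1b7 lie above the upper dotted line in the OGT-KO-labelled libraries, at 2.52 and 4.69, and the wide bar is that of Akr1b7 in the control-labelled libraries, which rests on 2 reads and 1 read.

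Of 10 further genes of the superfamily, 9 were listed and 4 were tested. With no recovery 3 of these 4 were lower in the OGT-KO-labelled library, and after 7 days 1 was (3 under median-ratio scaling). Akr1c12 had 12.6 and 60.0 CPM with no recovery and 19.9 and 61.1 after 7 days in the OGT-KO- and control-labelled livers. Akr1c20 had 22.8 and 61.2, then 29.2 and 59.2. At 7 days Akr1c20 was 2.03-fold lower by CPM (1.84 to 2.24) and just within 2-fold on the log2(CPM + 1) scale. All 8 listed AKR1C genes summed to 323.9 and 1399 CPM with no recovery and 527.2 and 1385 after 7 days.

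Akr1c19 is a further gene of the cluster. It had 11.5 CPM in the OGT-KO-labelled library and 70.4 in the control-labelled library with no recovery, but 36.0 and 45.8 after 7 days. Its level in the OGT-KO-labelled libraries was 3.14-fold higher after 7 days (2.73 to 3.62), while its ratio in those labelled control was 0.651 (0.599 to 0.707). Akr1c18, the 20α-hydroxysteroid dehydrogenase that inactivates progesterone, had 40 and 48 reads in the OGT-KO-labelled libraries against 0 and 2 in those labelled control, where the floor of 3 reads is 0.141 CPM with no recovery. Akr1c21 had 2 to 10 reads in every library. Akr1e1, the fourth tested gene, had 32.3 and 39.5 CPM with no recovery and 34.9 and 36.7 after 7 days.

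The more distant potassium channel β-subunits were low. Kcnab1 had 3.24 and 0.376 CPM in the OGT-KO- and control-labelled livers with no recovery and 4.34 and 0.601 after 7 days, Kcnab2 3.85 and 0.470, then 3.68 and 0.250, and Kcnab3 0.437 and 0.659, then 0.753 and 1.30. None of them was tested.

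Genes that share a pathway with the members were counted from lists of names. The counts of each list stand beside 24.4% of all tested genes higher and 5.69% lower with no recovery. After 7 days these shares were 22.9% and 4.27%. On the polyol and fructose list, to which aldose reductase feeds sorbitol, 6 of 8 genes were tested, and 1 was higher and 2 lower in the OGT-KO-labelled library at each time, with a median log2 difference of -0.55 with no recovery and -0.36 after 7 days. Under median-ratio scaling 4 and 3 were lower and the medians were -1.27 and -1.05. Hk1, a hexokinase, had 23.4 and 5.41 CPM with no recovery and was the higher one, also under 10 CPM in both control-labelled libraries. Khk, which phosphorylates fructose, had 76.6 and 272 CPM with no recovery and was among the lower ones.

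On the glucuronate and ascorbate list, around the step of Akr1a1, 7 of 8 genes were tested, of which 2 were higher and 1 lower with no recovery, and 1 higher and 1 lower after 7 days. The medians were -0.23 and 0.07, and -0.92 and -0.62 under median-ratio scaling, which called 0 and 1 higher and 3 and 3 lower. Ugdh, which makes UDP-glucuronate, had 615 and 191 CPM with no recovery and 576 and 166 after 7 days. Ugp2, which makes UDP-glucose, had 644 and 229, then 499 and 268. Rgn, the gluconolactonase of ascorbate synthesis, was the lower one at both times, with 114 and 780, then 255 and 865 CPM, and Dcxr, a xylulose reductase, had 43.6 and 70.2 CPM with no recovery. As deposited, Ugp2 and Ugdh were thus higher and Rgn lower with no recovery, while Akr1a1 stayed within 2-fold. Gulo, also on this list, had 228 and 402 CPM with no recovery and stayed within 2-fold too.

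On a list of bile acid and neutral steroid enzymes other than the members, 14 of 14 genes were tested, and 8 were lower and 0 higher in the OGT-KO-labelled library at each time, with medians of -1.77 and -1.60. Under median-ratio scaling 13 were lower with no recovery and 12 after 7 days. Of the 14, 2 were under 10 CPM in both OGT-KO-labelled libraries and passed the filter through the others. Hsd3b5 had 0.175 and 206 CPM with no recovery and 0.133 and 253 after 7 days. Cyp8b1, the sterol 12α-hydroxylase, had 5.16 and 348, then 51.0 and 412 CPM. Cyp7b1, an oxysterol 7α-hydroxylase, had 38.4 and 381, then 30.7 and 372, and Hsd11b1, which regenerates glucocorticoid, 41.1 and 363, then 66.2 and 412. These genes, which have the largest differences on the list, were lower with the label as the AKR1C genes were. At 7 days 6 of the 14 were within 2-fold as deposited, as Akr1d1 was.

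On a list of reductases and glutathione genes linked to the stress-responsive factor NRF2, 13 of 14 genes were tested, and 10 were higher and 0 lower with no recovery, and 9 higher and 0 lower after 7 days, with medians of 2.78 and 2.63. Under median-ratio scaling 8 were higher at each time and 0 lower. Of the 13 tested genes 5 were under 10 CPM in both control-labelled libraries and passed the filter only through their higher level in the others, so these counts are in part set by the filter. Slc7a11, a cystine transporter, had 51.9 CPM and no read with no recovery, and 36.5 and 0.0501 CPM after 7 days. Cbr3, a carbonyl reductase, had 74.2 and 0.470, then 30.6 and 0.501. Srxn1, which restores oxidised peroxiredoxin, had 1018 and 48.7, then 506 and 41.7, and Ptgr1, an alkenal reductase, 42.6 and 2.82, then 49.5 and 3.20 CPM. Between the times, 2 of the 13 were lower, 0 higher and 11 within 2-fold after 7 days in the OGT-KO-labelled libraries. Of all tested genes 0.435% were lower and 1.04% higher there. The ratios of Akr1b3 and Akr1b7 there were 2.52 and 4.69, and those of Akr1b8 and Akr1b10 were 0.856 and 1.40.

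Other enzymes of aldehydes and retinoids were counted as well. Of 11 tested aldehyde and alcohol dehydrogenases, 1 was higher and 2 lower with no recovery, and 2 higher and 1 lower after 7 days, with medians of -0.50 and -0.13, but under median-ratio scaling 0 and 1 were higher and 8 and 5 lower. Adh7 had 5.07 and 24.3 CPM and Aldh1b1 171 and 82.2 CPM with no recovery, while Aldh1a7 and Aldh7a1 were within 2-fold, at 397 and 219.9, and 320.4 and 594 CPM. Adh7, the gene of this list called lower after 7 days, was under 10 CPM in both OGT-KO-labelled libraries. It passed the filter only through the control-labelled libraries, so its lower call is in part set by the filter. Of 10 tested retinoid reductases and oxidases, 1 was higher and 4 lower with no recovery, and 2 higher and 1 lower after 7 days, with medians of -0.28 and -0.26 (-0.98 and -0.90, with 5 and 3 lower, under median-ratio scaling). Bco1, which cleaves β-carotene, had 21.9 and 5.74 CPM, and Rdh7 had 358 and 966 CPM, while Rdh11 had 16.2 and 42.9 and Dhrs9 12.3 and 6.12 CPM with no recovery. Bco1 and Dhrs9, the only genes of this list called higher, were under 10 CPM in both control-labelled libraries. They passed the filter only through the others, so these higher calls are in part set by the filter.

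Markers of liver cell types were read beside the members, since in bulk RNA fewer cells of a type and less RNA per cell cannot be told apart. Summed hepatocyte markers had 52265 and 74354 CPM in the OGT-KO- and control-labelled livers with no recovery and 64157 and 82571 after 7 days, with 3 of 6 lower at each time (5 and 4 under median-ratio scaling). Most of that sum was Alb, which stayed within 2-fold, while Apoa1, Apoa2 and Serpina1a were 3.04-, 3.26- and 4.70-fold lower with no recovery and 3.91-, 3.10- and 3.20-fold lower after 7 days. Of the markers of bile duct and progenitor cells, 5 of 5 were higher at each time, with sums of 1148 and 53.7, then 1457 and 69.6 CPM. Of the stellate and myofibroblast markers 5 of 5 were higher too, with sums of 2243 and 92.6, then 2867 and 68.2 CPM. Of these markers 3 of 5 and 2 of 5 were under 10 CPM in both control-labelled libraries and passed the filter through the others. Macrophage markers summed to 303 and 105, then 206 and 38.1 CPM, and 3 of the 3 tested were higher at each time. Of the endothelial markers 1 of 4 was higher with no recovery and 0 of 4 after 7 days, with sums of 224 and 143, then 165 and 103 CPM. The lymphocyte markers were both too low to be tested, with sums of 3.76 and 1.08, then 1.73 and 0.651. The part of these cells in the AKR1B and AKR1C values was not tested.

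Since Akr1b7 is an adrenal gene and a human relative of Akr1b8 and Akr1b10 is known from the gut, markers of those tissues were read as well. Of 4 adrenal cortex markers 2 were listed: Cyp21a1 had 47.8 and 9.60 CPM with no recovery and 26.6 and 4.76 after 7 days, and Star had 2.67 and 1.98, then 3.63 and 2.65. Of 4 small intestine markers 3 were listed: Fabp2 had 36.5 to 46.8 CPM in the 4 libraries, Vil1 had 5.99 and 0.188, then 9.93 and 0.551, and Cdh17 had 10.3 and 3.90 CPM in the OGT-KO-labelled libraries and no read in those labelled control. The part of these tissues in the AKR1B values was not tested.

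The genes whose pattern over the 4 libraries was most like that of Akr1b3 and Akr1c6, the tested members with the highest and the lowest mean log2 difference between the labels, were found by the distance between log2(CPM + 1) values centred on each gene's mean. With only 4 libraries many genes share a pattern. Nearest to Akr1b3 were Cdca3 (distance 0.134), Slfn9 (0.215) and Kif11 (0.250). Like Akr1b3, these genes were under 10 CPM in both control-labelled libraries and passed the filter only through the others. Their likeness is thus in part set by the filter. Cdca3, a cell cycle gene, had 18.7 and 2.92 CPM in the OGT-KO- and control-labelled livers with no recovery and 44.5 and 3.86 after 7 days. Nearest to Akr1c6 were Pank1 (0.0965), Pxmp2 (0.107) and Cyp4f14 (0.124). Pank1, a pantothenate kinase, had 41.3 and 194 CPM with no recovery and 75.2 and 219.7 after 7 days.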

How the data were processed

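Bulk mRNA-seq of mouse liver was read from 1 table with a column for each of 4 libraries, 1 per condition, and 0 columns were left unused. The authors deposited CPM, reads scaled to a library total of 1000000. The submitters' processing notes name STAR, DESeq2 and GRCm39, but which step each served and how reads on several genes were counted is not given in the sources used here. The table is named for DESeq2 normalization, yet every column sums to 1000000. In each library 100% of the CPM values were whole multiples of 1 read (tolerance 0.05 read), so whole reads were recovered: 22866431 and 21257763 in the OGT-KO- and control-labelled livers with no recovery, and 22567395 and 19972699 after 7 days.

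Genes were kept at a mean of 10 CPM or more (8963 genes), and differences of log2(CPM + 1) were called at 2-fold. Ratios of CPM carry exact 95% conditional intervals and levels exact binomial ones. An exact binomial test of these reads (Benjamini-Hochberg adjusted), which sets library against library rather than condition against condition, gave an adjusted p under 0.05 for 8016 and 7904 genes between the labels with no recovery and after 7 days, and for 3557 and 5065 between the times in the control-labelled libraries and OGT-KO. It removed none of the 2-fold calls. The other alternatives were pseudocounts of 0.1 and 10, no filter, a mean of at least 50 CPM, a 4-fold threshold, and upper-quartile and median-ratio scaling.

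The genes named are the members, Ogt, the other listed aldo-keto reductases, up to 4 genes of each pathway list with the largest mean difference between the labels, marker genes, and the 3 genes nearest in pattern to the members at either end. Some genes that this rule names are not reported here. Members, lists and markers were chosen with earlier results of these data known. Transcript lengths, shared 50-base stretches, coding identity and gene order come from GENCODE M21 (GRCm38), and upstream windows from RefSeq (GRCm38.p6). Python 3.11, numpy 2.4.6, pandas 2.3.3, scipy 1.17.1, Biopython 1.88 and matplotlib 3.10.9 were used, and the steps were tested on simulated reads.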

Additional observations from a re-analysis of the deposited data

Results flagged for a closer look

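Some members had opposite signs in comparisons of the same kind; with 1 library per condition none of these differences was tested. The difference between the labels had opposite signs at the 2 times for Akr1d1, whose log2 difference was -0.67 with no recovery and 0.01 after 7 days (0.69 apart), and for Akr7a5, at -0.18 and 0.09 (0.28 apart). Both lose the opposite sign under median-ratio scaling, where Akr1d1 had -1.38 and -0.66 and Akr7a5 -0.90 and -0.59.

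The difference between the times had opposite signs in the 2 labels for 5 members. Akr1b7 lay 2.09 apart on the log2 scale, at -0.06 in the control-labelled libraries, where it has 2 reads and 1 read, and 2.03 in those labelled OGT-KO. Akr1c14 lay 0.74 apart (-0.20 and 0.54), Akr1b10 0.54 apart (-0.10 and 0.44), Akr1c13 0.40 apart (-0.09 and 0.31) and Akr7a5 0.28 apart (-0.25 and 0.02). Of these, only the values of Akr1b7 in the OGT-KO-labelled libraries were past 2-fold.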

How the results depend on the processing

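Of 160 recomputed log2 differences of the members under other pseudocounts and scalings, 151 kept their sign, and of 64 recomputed counts of members called, 55 stayed within 1.5 times the reported count. The 55 include counts that were 0 under every setting. These are both directions between the times in the control-labelled libraries, and the count lower after 7 days in those labelled OGT-KO. Without the filter on low values the members higher in the OGT-KO-labelled library numbered 4 at no recovery and 4 at 7 days. Akr1b7, Akr1b8 and Akr1b10 then enter beside Akr1b3. The count higher after 7 days in the OGT-KO-labelled libraries was then 2, since Akr1b7 joined Akr1b3. With a mean of at least 50 CPM these 3 counts were 0, 0 and 0, because Akr1b3 then drops out. At 4-fold the count lower was 1 with no recovery (Akr1c6) and 0 after 7 days, and the count higher between the times was 0. Akr1d1 joined the members lower with no recovery, making 4, under both median-ratio and upper-quartile scaling. Counts of all tested genes higher and lower between the labels went from 2185 and 510 to 935 and 1381 with no recovery, and from 2050 and 383 to 1038 and 1055 after 7 days, under median-ratio scaling, to 1208 and 981, and 1215 and 740, under upper-quartile scaling, to 691 and 164, and 788 and 87, at 4-fold, to 525 and 351, and 503 and 281, with a mean of at least 50 CPM, and to 4595 and 605, and 4492 and 461, without the filter. With a pseudocount of 10 they were 1367 and 414, and 1344 and 305. The limits are that 1 pool stands for each condition, that no replicate can be left out, and that Akr1b7 rests on 1 or 2 reads in the control-labelled libraries. No paired analysis was possible because each condition has 1 library and the labels give no replicate numbers.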
